A study of Homo sapiens with 6 samples.

Results

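The genes described here are 10 genes of endoplasmic reticulum (ER) protein folding and of the unfolded protein response, chosen by symbol from the 23368 genes of the table: HSPA5, HYOU1, SDF2L1, DNAJB9, PDIA4, CRELD2, MANF, HERPUD1, SEL1L and XBP1. All 10 were present and all 10 had enough reads for the test, as did 10678 genes in all. The rule used their known function and no measured value, though it was written with earlier results of these data known. The cells were 1205Lu, an established human metastatic melanoma line, kept in Tu2% medium. Cells in 3 flasks received the plasmid pCMV6-SOX10 to overexpress the transcription factor SOX10, which acts in melanocytes and the neural crest, and cells in 3 flasks received the control plasmid pCMV6. Both groups were thus transfected, with 7.8 µg of plasmid and FuGENE 6 per flask, and lysed after 24 h, and no untransfected cells were analysed here. Transfection was transient, so each library mixes cells with and without plasmid, and a change in some cells cannot be told apart from a smaller change in all of them.

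Proteins that enter the secretory pathway fold in the ER with the help of chaperones, of enzymes that form disulphide bonds, and of a degradation route for those that fail to fold. When unfolded proteins build up, the sensors IRE1, ATF6 and PERK start the unfolded protein response. IRE1 splices the XBP1 mRNA into the form that encodes the active transcription factor. XBP1 and ATF6 then induce chaperones and degradation factors, while PERK slows translation and, through ATF4, induces a separate set of stress genes. Secretory and pigment-forming cells are known for a large folding load in this compartment.

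The promoters were searched for known elements of the unfolded protein response, none of which all 10 members held. The genes were chosen by known function, so the shares below are a description only. The ER stress response element (ERSE) is the letters CCAAT, a spacer of 9 bases and CCACG. Its shorter relative ERSE-II is ATTGG, 1 base and CCACG, and the core of the unfolded protein response element (UPRE) was searched as TGACGTG. The 250 bases before the annotated start were read from RefSeq promoters on GRCh38.p14, where all 10 members were matched, and both strands were searched. An exact ERSE lay before HSPA5, XBP1 and CRELD2, against 0.074% of all 35116 promoters searched in the same way. An exact ERSE-II lay before HERPUD1, HYOU1 and SDF2L1, against 0.0513%. The windows around these matches are printed because elements of this kind are known as the ones through which ATF6 and XBP1 act. Each runs 5′ to 3′ on the strand of the gene, with the match in capitals and 15 bases on either side.
HSPA5, ERSE, chr9:125241376-125241424, minus strand: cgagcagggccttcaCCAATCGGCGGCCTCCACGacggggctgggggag
XBP1, ERSE, chr22:28800588-28800636, minus strand: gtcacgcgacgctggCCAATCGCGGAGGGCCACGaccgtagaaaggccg
CRELD2, ERSE on the opposite strand, chr22:49918539-49918587, plus strand: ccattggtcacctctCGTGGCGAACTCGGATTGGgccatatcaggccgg
HERPUD1, ERSE-II, chr16:56932010-56932050, plus strand: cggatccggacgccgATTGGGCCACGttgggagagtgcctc
HYOU1, ERSE-II on the opposite strand, far site, chr11:119057365-119057405, minus strand: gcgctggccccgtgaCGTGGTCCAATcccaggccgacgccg
HYOU1, ERSE-II on the opposite strand, near site, chr11:119057259-119057299, minus strand: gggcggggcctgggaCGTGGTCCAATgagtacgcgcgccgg
SDF2L1, ERSE-II on the opposite strand, chr22:21642099-21642139, plus strand: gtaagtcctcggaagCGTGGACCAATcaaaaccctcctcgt

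The ERSE of HSPA5 ended 48 bases before the start and that of XBP1 34 bases before it. HYOU1 held ERSE-II at 2 places, ending 175 and 69 bases before the start, and the far one overlapped a match to the UPRE core, which 1.68% of promoters hold. PDIA4, DNAJB9, SEL1L and MANF had no exact match to ERSE, ERSE-II or the UPRE core in this window. The separate parts CCAAT and CCACG were present before all 10 genes, and before 32% and 33.5% of all promoters. XBP1 and PDIA4 have 2 annotated starts, and their matches are given for the first. A match describes the letters of the reference only.

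**Figure D1:**
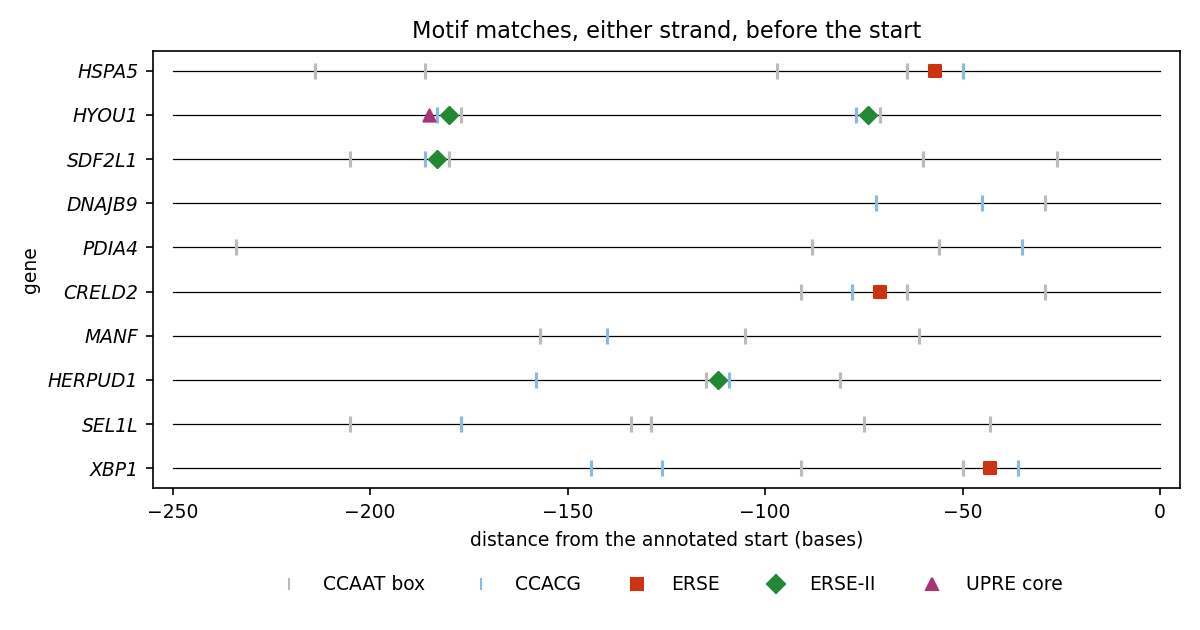
Matches to 5 motifs on either strand in the 250 bases before the annotated start of each gene, by distance from the start in bases. Squares mark ERSE in HSPA5, CRELD2 and XBP1, diamonds mark ERSE-II in HYOU1, SDF2L1 and HERPUD1, the triangle marks the UPRE core in HYOU1, and grey and blue bars mark CCAAT and CCACG.

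Reads assigned to genes numbered 2544420 to 4167393 in the libraries labelled SOX10 and 867917 to 2066520 in the controls, so that every SOX10 library was deeper than every control library. Reads outside genes stood at 93.5 to 135 per 100 assigned reads, lowest in SOX10 replicate 1 and control replicate 3 and highest in control replicate 2. SOX10 itself had 81, 47 and 143 reads in the libraries labelled SOX10 and 15, 18 and 44 in the controls, which the fit put at 0.35 on the log2 scale (SE 0.27, edgeR adjusted p = 0.927), so its reads did not check the labels. Of the melanocyte lineage markers, S100B stood at 307 ± 42.5 CPM (SD, n = 3) in the controls. MITF stood at 5.94 ± 2.46 CPM there, with a log2 fold change of -0.44 (SE 0.46) on 75 reads. MLANA, TYR, DCT, TYRP1 and PMEL had 4 to 19 reads each over all 6 libraries and were not tested. Of 10 markers of epithelial, blood, vessel and stromal cells 9 were too rare for the test, at 0 to 28 reads over all libraries. Only VWF was tested, at 57 reads and a log2 fold change of -0.47 (SE 0.55).

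No member passed the test for a difference between cells given the SOX10 plasmid and cells given the empty plasmid. By edgeR's quasi-likelihood test 0 of 10 members passed an adjusted p of 0.05, against 0.112% of all genes tested. At an unadjusted p under 0.05 there were 0 of 10, against 6.23% of all genes, and DESeq2 and limma-voom also called 0 of 10 on the adjusted p. The ranges of the groups overlapped for all 10 genes, while 11.8% of all genes tested had groups that did not overlap. Of the fitted log2 fold changes 9 of 10 were above 0, as were 5481 of 10678 over all genes. Their median was 0.12, against 0.0076 over all genes tested, and they ran from -0.0022 for CRELD2 to 0.29 for DNAJB9.

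The confidence intervals show how far each change could be bounded. For HSPA5, PDIA4 and HYOU1, with 16065, 19123 and 7216 reads over all libraries, the 95% confidence intervals of the fold ended at 1.24, 1.18 and 1.25, so larger rises lay outside them. For SDF2L1, with 219 reads, the interval ran from 0.72-fold to 1.92-fold. In the controls the coefficient of variation was 9.82% for HSPA5, 8.93% for PDIA4 and 9.01% for HYOU1, against 2.997%, 2.67% and 4.35% from counting error alone, so the spread between libraries exceeded counting error there. A p above the threshold does not show that levels were equal. The labels do not say whether the biological replicates were grown on separate days. The p-values set the difference between groups against the spread between these samples only, as estimated with information from all genes tested.

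**Figure D2:**
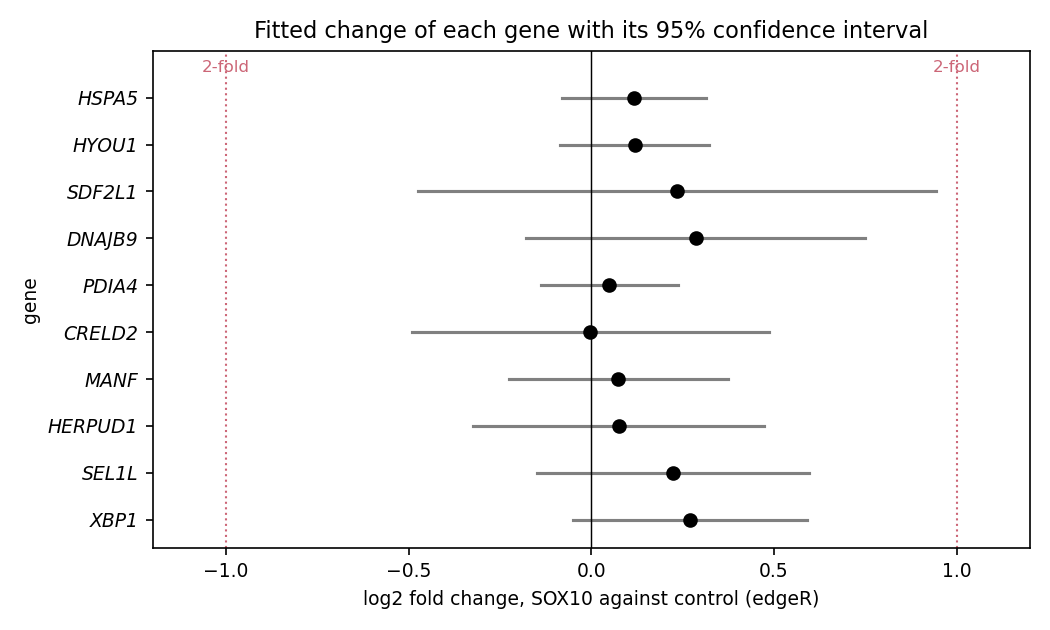
Fitted log2 fold change of SOX10 against control (points) with its 95% confidence interval (lines) for each of the 10 genes, and dotted lines at 2-fold. Each interval crosses 0 and lies within 2-fold, and the widest is that of SDF2L1.

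HSPA5 encodes BiP, the main chaperone of the ER lumen and the usual readout of the unfolded protein response. It stood at 1231, 1077 and 1117 CPM in the libraries labelled SOX10 and at 1006, 978 and 1169 CPM in the controls, scaled by TMM. Control replicate 3 lay above SOX10 replicates 2 and 3, so the groups overlapped. The log2 fold change was 0.12 (SE 0.095, edgeR adjusted p = 0.929). HSPA5 was among the most abundant genes, at the 99.0 percentile of control levels.

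HYOU1 encodes a large chaperone that also exchanges nucleotides on BiP. It stood at 522, 535 and 509 CPM in the SOX10 libraries and at 448, 531 and 467 CPM in the controls. The SOX10 libraries lay close together, with control replicates 1 and 3 below them and control replicate 2 among them. Its log2 fold change was 0.12 (SE 0.098, edgeR adjusted p = 0.929). On its opposite strand 14.1% of its exonic bases are shared with the antisense gene AP003392.3 in GENCODE release 29. How strand was handled in counting is not known, so reads of the pair may not have been separated.

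SDF2L1 encodes a cochaperone that works with the J-domain protein DNAJB11 to keep clients soluble. It was the rarest member. The SOX10 libraries held 68, 39 and 58 of its reads, the controls 15, 3 and 36. These counts came to 18.2, 15.6 and 14.0 CPM against 16.6, 3.46 and 17.6 CPM. Control replicate 2 was far below the other 5 libraries, and its 3 reads have an exact 95% Poisson interval of 0.714 to 10.1 CPM, below the interval of control replicate 3, from 12.3 to 24.3 CPM, but overlapping that of control replicate 1, from 9.28 to 27.4 CPM. The log2 fold change was 0.23 (SE 0.34, edgeR adjusted p = 0.950), and leaving out control replicate 2 gave -0.11, while leaving out control replicate 3 gave 0.65.

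DNAJB9 encodes a J-domain cochaperone that hands unfolded clients to BiP and to degradation and dampens IRE1. It stood at 64.3, 37.1 and 52.6 CPM in the SOX10 libraries and at 55.3, 26.5 and 44.4 CPM in the controls. Replicate 2 was the lowest library of each group, and the spread within groups exceeded the difference between them. Its log2 fold change, 0.29 (SE 0.22, edgeR adjusted p = 0.929), was the largest among the members. It was 0.094 without SOX10 replicate 1, 0.46 without SOX10 replicate 2, 0.47 without control replicate 1 and 0.091 without control replicate 2. Of its exonic bases 6.74% are shared with THAP5 on the opposite strand, whose own log2 fold change was -0.18 (SE 0.14).

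PDIA4 encodes a disulphide isomerase with several thioredoxin domains, and had the most reads of all members. It stood at 1378, 1393 and 1303 CPM in the SOX10 libraries and at 1370, 1176 and 1388 CPM in the controls. Control replicate 2 was the lowest, and the other 5 libraries lay within 1303 to 1393 CPM. The log2 fold change was 0.049 (SE 0.090, edgeR adjusted p = 0.963), and it was -0.021 without control replicate 2.

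CRELD2 encodes an ER protein with repeats of the epidermal growth factor type that takes part in disulphide exchange. It stood at 35.1, 33.9 and 32.9 CPM in the SOX10 libraries and at 52.0, 23.1 and 29.3 CPM in the controls. The controls spanned the SOX10 libraries on both sides, with a coefficient of variation of 43.8% against 3.15%. Counting error alone gives 17.1% at the depth of the controls and 9.44% at that of the SOX10 libraries. Its log2 fold change was -0.0022 (SE 0.24, edgeR adjusted p = 0.999), and its sign changed under several settings.

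MANF encodes a small ER protein that binds BiP and is secreted under stress. It stood at 110, 97.7 and 82.6 CPM in the SOX10 libraries and at 89.6, 80.7 and 101 CPM in the controls. The groups were interleaved. The log2 fold change was 0.074 (SE 0.15, edgeR adjusted p = 0.963), and it was -0.038 without SOX10 replicate 1.

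HERPUD1 and SEL1L belong to the degradation route, in which the HRD1 ubiquitin ligase sends misfolded proteins to the proteasome. HERPUD1, a membrane protein with a ubiquitin-like domain, stood at 43.6, 34.7 and 39.5 CPM in the SOX10 libraries and at 40.9, 32.3 and 38.5 CPM in the controls. Replicate 2 was again the lowest of each group, and the spread in the controls, 11.9%, was below the 15.9% that counting error gives. Its log2 fold change was 0.075 (SE 0.19, edgeR adjusted p = 0.974), and it was -0.0081 without SOX10 replicate 1.

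SEL1L, the adaptor that holds the HRD1 complex together, stood at 72.3, 71.8 and 104 CPM in the SOX10 libraries and at 58.6, 93.4 and 65.3 CPM in the controls. A single library in each group was high, SOX10 replicate 3 and control replicate 2, and the others lay between 58.6 and 72.3 CPM. The log2 fold change was 0.22 (SE 0.18, edgeR adjusted p = 0.929). It rested on SOX10 replicate 3, without which it was 0.014, and it was 0.41 without control replicate 2.

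XBP1 encodes the transcription factor of the IRE1 branch. Gene counts do not separate its spliced from its unspliced mRNA, so the activity of the branch was not measured. XBP1 stood at 104, 75.4 and 90.1 CPM in the SOX10 libraries and at 86.2, 64.6 and 74.1 CPM in the controls. SOX10 replicate 2 lay below control replicate 1, and the groups overlapped. The log2 fold change was 0.27 (SE 0.15), with an unadjusted p of 0.0954 and an edgeR adjusted p of 0.881, the smallest of the members. It was 0.15 without SOX10 replicate 1 and 0.37 without SOX10 replicate 2. A processed pseudogene, XBP1P1, is annotated, and how reads were divided between them is not known from the table.

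**Figure D3:**
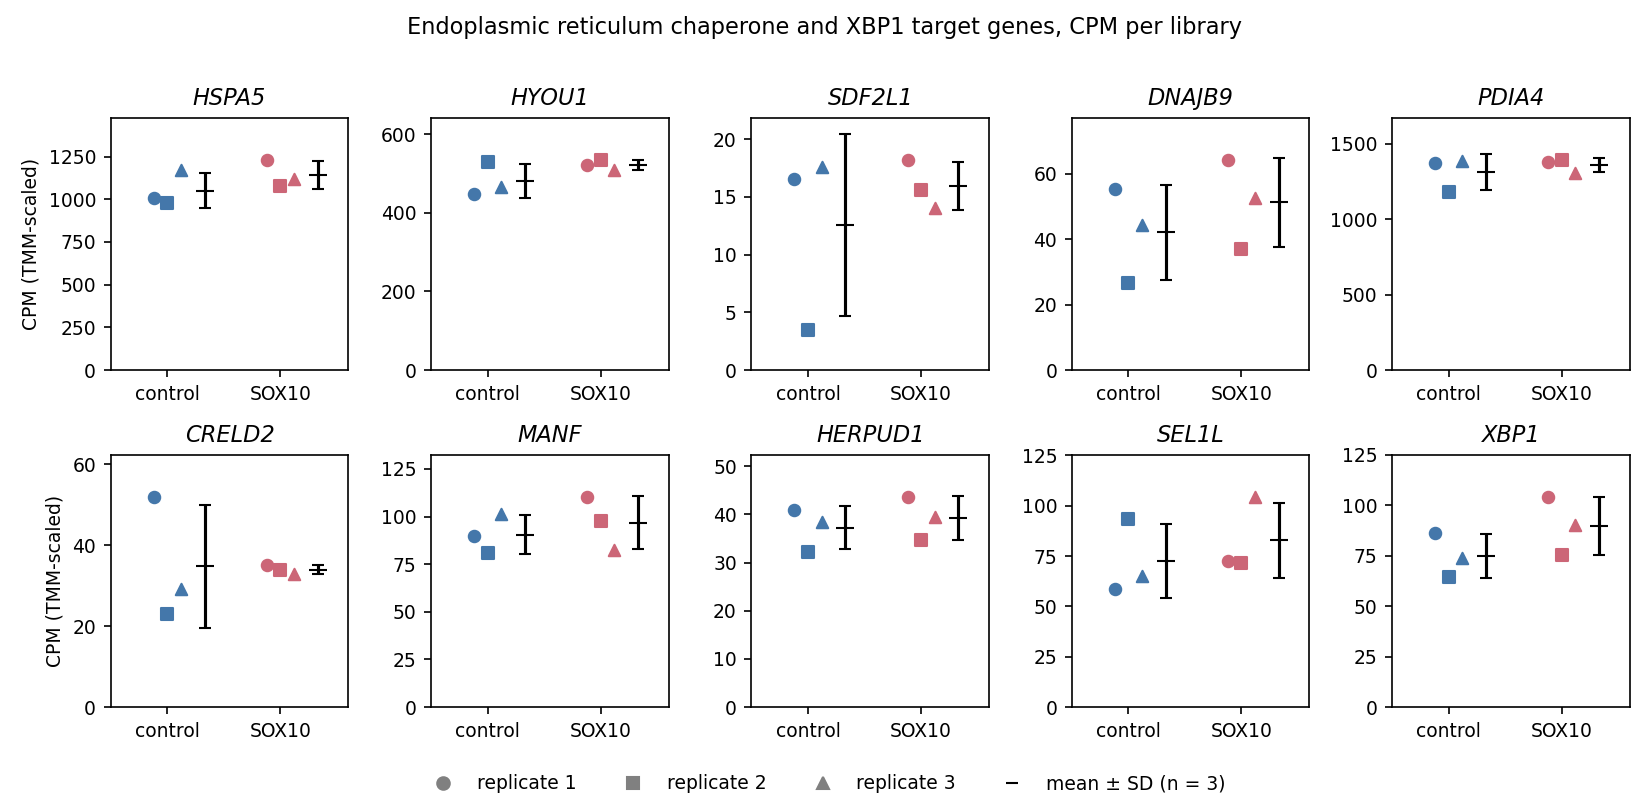
CPM scaled by TMM in each of the 6 libraries for the 10 genes, with the replicate shown by the symbol and the mean ± SD of each group (n = 3) beside the points. In every panel the groups overlap, and control replicate 2 is the lowest of the 6 libraries in 8 panels.

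Levels were compared between genes as CPM per kilobase of exonic sequence in GENCODE release 29, in the controls. PDIA4 came first at 452 ± 40.4 and HSPA5 second at 269 ± 26.4 CPM per kilobase (SD, n = 3). HYOU1 followed at 102 ± 9.18, MANF at 78.6 ± 9.002 and XBP1 at 36.8 ± 5.32 CPM per kilobase. These steps each exceeded the sum of both SDs. The next neighbours did not differ beyond their spread, with CRELD2 at 22.04 ± 9.65, DNAJB9 at 15.5 ± 5.35, SDF2L1 at 14.5 ± 9.10 and HERPUD1 at 12.6 ± 1.51 CPM per kilobase, and the step from XBP1 to CRELD2 did not exceed it either. SEL1L was the lowest, at 8.45 ± 2.15 CPM per kilobase, a step below HERPUD1 that exceeded the sum of both SDs. This order depends on the length used, 8576 exonic bases for SEL1L and 2946 for HERPUD1. In plain CPM SEL1L stood above HERPUD1 in the controls, at 72.5 against 37.2. The annotation behind the counts is not known, and the SDs do not cover the choice of length. HSPA5 and PDIA4 together held 71.6% to 75.3% of all reads of the members in every library, and all 10 members 0.301% to 0.358% of the reads assigned to genes.

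The members varied between libraries of the same group, and most of them did so together. Control replicate 2 was the lowest of the 6 libraries for 8 of 10 members, all but HYOU1 and SEL1L, while it was the lowest for 21.2% of all genes tested. SOX10 replicate 1 was the highest for 6 members, while it was the highest for 15.3% of all genes. The mean of the members on the log2 scale, each centred on its own mean, was 0.21, -0.0098 and 0.083 in SOX10 replicates 1 to 3 and 0.079, -0.37 and 0.0071 in control replicates 1 to 3. Without SDF2L1, the member with 3 reads there, control replicate 2 stood at -0.22. Control replicate 2 was also the shallowest library and had the most reads outside genes, and the part of these in the result was not tested.

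HYOU1 and SEL1L went the other way. Over the 6 libraries 30 of all 45 pairs of members had a correlation of log2 CPM above 0, with a median of 0.59. On deviations from the group means 28 of the 45 did, with a median of 0.50. HYOU1 and SEL1L were set apart for their signs, so the split counts that follow reflect that choice. The 28 pairs among the other 8 members all had an r above 0. Their r ran from 0.0044 to 0.99, with a median of 0.66. Of the 16 pairs of HYOU1 or SEL1L with those 8 members, 1 had an r above 0, and the median was -0.39. HYOU1 and SEL1L had an r of 0.63 with each other. On deviations from the group means the medians were 0.64 for the 28 pairs, with 27 of them above 0, and -0.74 for the 16 pairs. Pairs of other genes were not counted. Over the 6 libraries the closest pair was HERPUD1 and DNAJB9, with an r of 0.99, followed by SDF2L1 and PDIA4 with 0.96. SDF2L1 had 3 reads in control replicate 2. On deviations HERPUD1 and DNAJB9 were again closest, followed by XBP1 and HERPUD1 with 0.97. These values describe 6 libraries that share depth and preparation within each library, and the grouping was noticed after the values were seen.

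**Figure D4:**
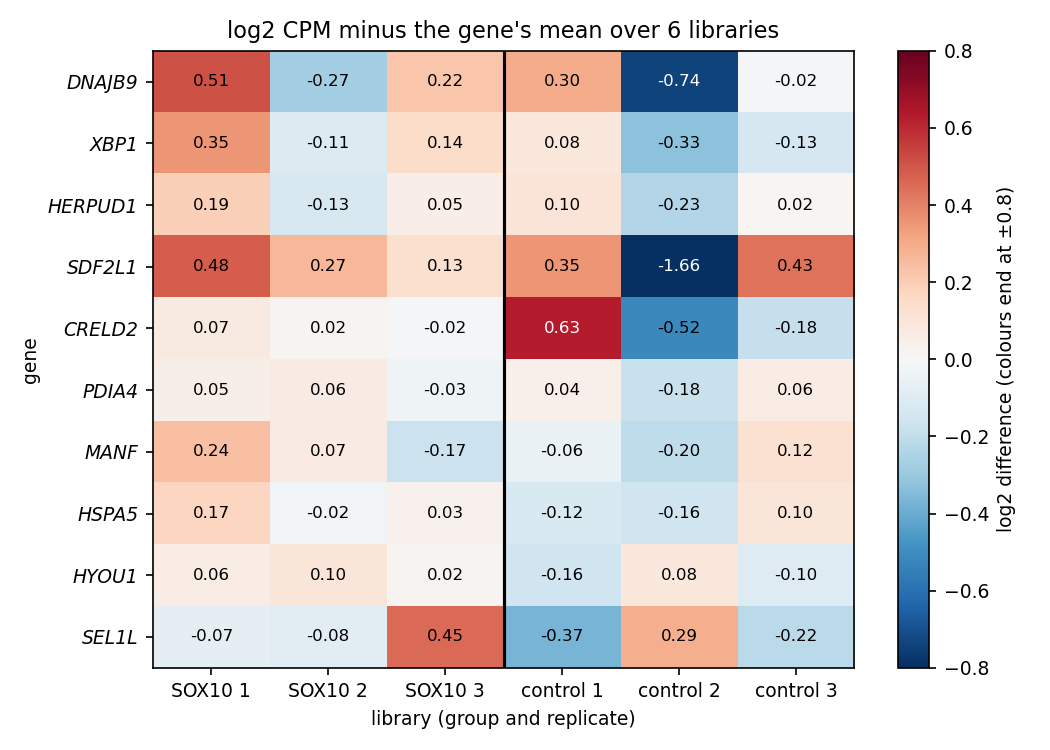
Log2 CPM of each gene (rows) in each library (columns) minus the mean of the gene over the 6 libraries, with red above and blue below that mean. Control replicate 2 is blue for 8 genes and red for HYOU1 and SEL1L, and SDF2L1 reaches -1.66 there.

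The genes whose levels followed HSPA5 most closely over the 6 libraries were not members. Among 6624 genes of at least 20 CPM these were NUMA1, DYNLT1, ACSL3, TNC and BOLA3, with Pearson r from 0.98 to 0.99. ACSL3, an enzyme that activates fatty acids, stood at 1551, 1327 and 1368 CPM in the SOX10 libraries and at 1208, 1198 and 1524 CPM in the controls, with SOX10 replicate 1 and control replicate 3 on top as for HSPA5. The member most like HSPA5 was MANF, at rank 366 with an r of 0.78. CRELD2, with an r of 0.0044, was at rank 3328. SOX10 replicate 1 and control replicate 3 also had the fewest reads outside genes, at 93.46 and 96.97 per 100 assigned reads. Control replicate 2, the lowest for HSPA5, had the most, at 135.3. SOX10 replicates 2 and 3, at 121.3 and 122.5, went the other way, since HSPA5 was higher in replicate 3. The deepest library, SOX10 replicate 3, was not on top. The part of reads outside genes in these ranks was not tested. With 6 libraries and many genes compared, the ranks are a description only.

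The other genes of ER folding and transport were not called either. Over all genes tested 6.23% had an unadjusted p under 0.05 by edgeR, the share to set beside the counts below. Of 8 sensors and their proteases, all tested, 0 passed the edgeR test on the adjusted or the unadjusted p, and the median log2 fold change was 0.082. MBTPS2, the protease that releases ATF6, had 0.22 (SE 0.16), and the transcription factor CREB3L2 0.15 (SE 0.13). Of 12 other tested chaperones and cochaperones 0 passed, or 1 on the unadjusted p, around a median of 0.11. This was DNAJC3, a cochaperone that inhibits PERK, at 101 ± 12.5 against 80.7 ± 24.3 CPM (SD, n = 3 each), or 0.35 on the log2 scale (SE 0.17, edgeR adjusted p = 0.794), and the lectin chaperone CANX had 0.15 (SE 0.089).

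Of 11 other tested disulphide enzymes 0 passed on the adjusted or the unadjusted p, and their median was 0.031. TXNDC11 stood at 0.29 (SE 0.22) on the log2 scale, and the oxidase gene ERO1LB 0.59 (SE 0.48) on 101 reads. Of 18 other tested degradation genes 0 passed, 3 had an unadjusted p under 0.05, against 6.23% of all genes tested, and the median was 0.016. They did not move one way. FAM8A1, a cofactor of HRD1, had -0.87 (SE 0.32, edgeR adjusted p = 0.584), while SYVN1, which encodes HRD1 itself, had 0.40 (SE 0.18, edgeR adjusted p = 0.766). Of 25 genes of translocation and transport 0 passed and 2 had an unadjusted p under 0.05, against 6.23% of all genes tested. The log2 fold change was above 0 for 22 of the 25, against 5481 of 10678 over all genes, and the median was 0.12. SEC61G, a subunit of the translocation channel, had 0.34 (SE 0.16), and LMAN1, a cargo receptor for export, 0.25 (SE 0.12), with adjusted p-values of 0.766 and 0.789 by edgeR. By DESeq2 and by limma-voom the count was 0 in each of these 5 lists too.

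The list of PERK-ATF4 genes had the only called genes among the lists. The list is named for known function, and the activity of PERK was not measured, so a called gene here does not show a change of the branch. Of 11 tested genes 2 fell by edgeR over all genes, 10 had a log2 fold change below 0, and the median was -0.38. At an unadjusted p under 0.05 by edgeR, 3 were lower and 1, ASNS, was higher, at 0.26 (SE 0.12) on the log2 scale. ATF4 itself had -0.017 (SE 0.14). Of all genes tested 0.112% were called, 6.23% had an unadjusted p under 0.05 and 5197 of 10678 had a log2 fold change below 0. PPP1R15A, which restores translation after PERK has slowed it, fell by 1.08 (SE 0.13), and the stress transcription factor ATF3 fell by 0.86 (SE 0.17), with adjusted p-values of 0.000103 and 0.0417. PPP1R15A was called in all 16 alternatives and ATF3 in 6 of them. When single libraries were left out, ATF3 was lost each time except for control replicate 3. PPP1R15A stood at 77.7, 93.7 and 76.8 CPM in the SOX10 libraries and at 193, 180 and 154 CPM in the controls. Set beside HSPA5, it came to 6.31, 8.70 and 6.87 per 100 HSPA5 CPM in the SOX10 libraries and to 19.2, 18.4 and 13.1 in the controls. HSPA5 overlapped between groups in the same libraries. These values are descriptive, since both genes were chosen with results known, and the difference between them was not tested.

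Heat shock proteins of the cytosol and mitochondria, the chaperones of other compartments, were compared in the same way. Of 12 tested genes 0 passed the edgeR test and 1 did so on the unadjusted p, against 6.23% of all genes tested. The median log2 fold change was 0.048. DESeq2 and limma-voom also called 0. HSPA1B had -0.70 (SE 0.30, edgeR adjusted p = 0.750), and its reads are uncertain because HSPA1A is a near-identical copy. The mitochondrial cochaperonin HSPE1 had 0.39 (SE 0.19).

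**Figure D5:**
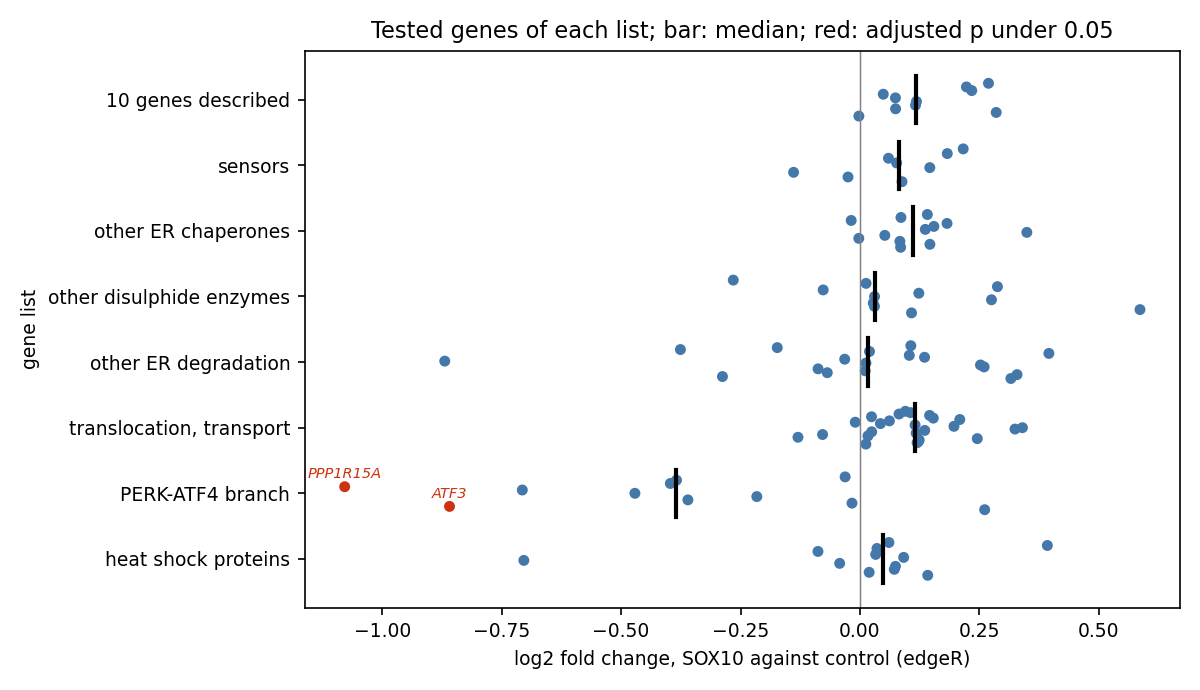
Log2 fold change of SOX10 against control for every tested gene of the 10 genes described and of 7 related lists, with a bar at the median of each list and genes with an adjusted p under 0.05 in red. PPP1R15A and ATF3 of the PERK-ATF4 branch are the only red points, and the medians of the other lists lie between 0.016 and 0.12.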

How the data were processed

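RNA sequencing read counts were analysed for 6 libraries of 1205Lu cells, 3 per group. The counts deposited by the authors are whole numbers per gene symbol, not normalized, for 23368 genes. The submitters' processing notes list TopHat 1.4.0, HTSeq, DESeq and the build hg19. Which gene annotation and strand setting were used is not given in these sources. The 5 rows of read classes, which name no gene, were left out. Reads outside genes made up 39.4% to 46.9% of counted records, reads in several places 17.7% to 19.1% and ambiguous reads 0.435% to 0.551%.

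The test was edgeR's quasi-likelihood test (edgeR 4.0.16, R 4.3.3), two-sided and without covariates, after filtering and TMM scaling. The filter was filterByExpr with a minimum count of 10 and a minimum total of 15. It applies the minimum count as a CPM cutoff in as many libraries as a group has, so single libraries can hold fewer reads. Benjamini-Hochberg adjustment was made over 10678 genes at 0.05. Log2 fold changes give SOX10 over control and use a prior count of 0.125. Their standard errors come from the F statistic. Alternatives were other scalings and filters, DESeq2 1.42.0, limma-voom (limma 3.58.1), the replicate number as a block, thinning to equal depth and leaving out libraries.

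The genes and lists were chosen with earlier results of these data known. All 10 genes are named, with the 2 genes of smallest p in each list, the 5 genes most like HSPA5, SOX10, markers of cell type, and ASNS and ATF4. Exon lengths come from GENCODE release 29 and promoters from RefSeq on GRCh38.p14, another build than hg19, so no coordinate was joined to the counts. A count of 0 would allow 3 reads, or 0.72 to 3.46 CPM. Intervals and this limit cover counting error only.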

Additional observations from a re-analysis of the deposited data

How the results depend on the processing

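No member was called on the adjusted p in any of the 16 alternatives, with adjusted p-values from 0.762 to 0.999994, and their median log2 fold change stayed within 0.038 to 0.16. Of 160 single values 147 kept their sign. CRELD2, whose value was closest to 0, changed sign with library totals (0.0033), upper quartile scaling (0.025), no filter on low counts (0.029), a filter of 2 CPM in 3 libraries (0.0014), limma-voom (0.078), the replicate block (0.011) and thinning (0.29). Leaving out single libraries gave ranges of -0.17 to 0.34 for CRELD2, -0.0081 to 0.15 for HERPUD1, -0.038 to 0.19 for MANF, -0.11 to 0.65 for SDF2L1 and -0.021 to 0.095 for PDIA4. The count of members at an unadjusted p under 0.05 was 0 to 1 without single libraries and 1 after thinning. These were XBP1 without SOX10 replicate 2 and after thinning, and SEL1L without control replicate 2. Calls over all genes numbered 12, against 6 to 18 without single libraries, 48 with no filter (20538 genes tested) and 7 without SOX10 replicate 1 and control replicate 3 together. In the pathway lists 2 genes were called, against 1 to 2 without single libraries and 1 each with upper quartile scaling, limma-voom, thinning and without that pair of libraries, where PPP1R15A remained. The causes were not tested.

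Whether the replicate numbers pair the samples is not known from the labels. Deviations of same-numbered libraries correlated at -0.030, -0.033 and -0.14 over all genes tested. Over the 10 members they correlated at 0.54, 0.031 and -0.53. With 3 libraries per group such values cannot tell whether same-numbered libraries shared a day. The block left 7 calls over all genes and 1 in the pathway lists, and changed no call among the members.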
